A study of Mus musculus with 12 samples.

Results

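The genes described here encode the subunits of the mitochondrial respiratory chain and the ATP synthase, complexes I to V, from both the nuclear and the mitochondrial genome. They were taken by symbol: Nduf (letters a, b, c, s and v, with a number), Sdha to Sdhd, Uqcr, Cyc1, Cox4 to Cox8, Atp5 and the mitochondrially encoded mt-Nd, mt-Co, mt-Cytb and mt-Atp genes. Ndufaf assembly factors and symbols with the pseudogene mark -ps were left out. A mean normalised read count of at least 100 over the 12 libraries was also required. Of 102 symbols that matched, 88 passed this minimum and 14 did not, out of 46078 genes in the table. The 88 genes comprised 77 nuclear genes (35 of complex I, 4 of complex II, 9 of complex III, 12 of complex IV and 17 of complex V) and 11 mitochondrially encoded genes. Ndufa4, named for complex I but known as a subunit of complex IV, was counted with complex IV. All 88 were annotated as protein coding and all 88 were tested.

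The respiratory chain passes electrons from NADH (complex I) and succinate (complex II) through ubiquinone, complex III and cytochrome c to oxygen at complex IV. Complexes I, III and IV pump protons across the inner mitochondrial membrane, and complex V, the ATP synthase, uses the gradient to make ATP. Most subunits are encoded in the nucleus and imported, whereas a small core of complexes I, III, IV and V is transcribed from mitochondrial DNA. Neurons depend on this pathway for the ATP that supports ion pumping and synaptic transmission.

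RNA-seq of hippocampus from C57BL/6 mice at postnatal day 25 was compared in 4 groups of 3 libraries. Mutant males and mutant females were heterozygous for the Chd8 frameshift mutation Asn2373LysfsX2, and wild-type males and wild-type females were their references. Chd8 encodes a chromatin remodelling enzyme. Whether each library stands for its own animal, and whether mutants and wild types were littermates, is not stated in the labels, so p-values reflect only library-to-library spread, which may be technical. Values are normalised counts, in which a library's reads were scaled by its size factor, and log2 differences were fitted with limma on log2(normalised count + 1) with Benjamini-Hochberg adjustment over 17496 genes. Standard errors follow ±, except where SD is named.

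Depth was 23721482 to 24654408 reads in the 6 mutant libraries, against 26912998 to 33327314 in the 6 of wild type, so depth and genotype cannot be told apart. Chd8 averaged 2438 ± 64 normalised counts in mutant males, against 2866 ± 122 in wild-type males, and 2472 ± 43.6 in mutant females, against 2870.2 ± 24.1 in wild-type females (SD, n = 3 each). Its averaged log2 difference was -0.22 (limma adjusted p = 0.0289). All 6 markers of hippocampal neurons were detected in every library. The mean log2 level of 12 choroid plexus markers was 5.37 to 5.92 in mutant male 2, mutant male 3 and wild-type female 1, and 9.70 to 11.4 in the other 9 libraries. Of the myelin markers, 8 of 8 had lower means in the mutants of each sex (median log2 difference -0.24 in males and -0.25 in females), and 6 of 6 smooth muscle and pericyte markers had higher means (median 0.77 in males and 0.80 in females). Fibroblast and meninges markers had higher means for 4 of 6 in mutant males (median 0.16) and 6 of 6 in mutant females (median 1.29). Red blood cell markers had higher means for 0 of 5 in mutant males (median -0.18) and 5 of 5 in mutant females (median 0.77), and ependyma markers for 0 of 5 (median -0.67) and 2 of 5 (median -0.19). Neuronal markers had a median difference of 0.14 in males and 0.016 in females. The part of these cell types in the values below was not tested. Fewer cells of a type and less RNA per cell cannot be told apart in these bulk samples.

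Levels per length spanned more than 3 orders of magnitude and were highest in genes of mitochondrial DNA. Divided by the summed exon length, mt-Co1, the catalytic subunit of complex IV, was highest at 231737 normalised counts per kb (mean of 12 libraries). The other genes next in order were mt-Cytb, the cytochrome b of complex III, at 147604 per kb and mt-Nd1, a membrane subunit of complex I, at 126123 per kb. The ranges of these 3 over the 12 libraries did not overlap. Then came mt-Nd2 at 76355, mt-Nd4 at 54746, mt-Nd5 at 54250.0, mt-Nd6 at 38134 and mt-Atp8 at 29500.4 per kb, of which only mt-Nd4 and mt-Nd5 overlapped each other. The highest nuclear gene, Cox8a, a small subunit of complex IV, had 11721 per kb and lay below all 8 of these in every library. It was followed by Cox6a1, another small subunit of complex IV, at 7132 per kb. Next came the ATP synthase subunits Atp5a1 (alpha) at 6288 and Atp5b (beta) at 5907 per kb. Cox6a1 overlapped Atp5a1, and Atp5a1 overlapped Atp5b. The median level per kb was 946 in nuclear complex I, 1421 in complex II, 1893 in complex III, 2458 in complex IV and 1354 in complex V. Summed exon length counts rare long isoforms. With the length of the principal transcript the medians were 1554, 1982, 2878, 4897 and 3466 per kb in the same order, and Atp5b then stood second among nuclear genes at 13062 per kb.

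**Figure D1:**
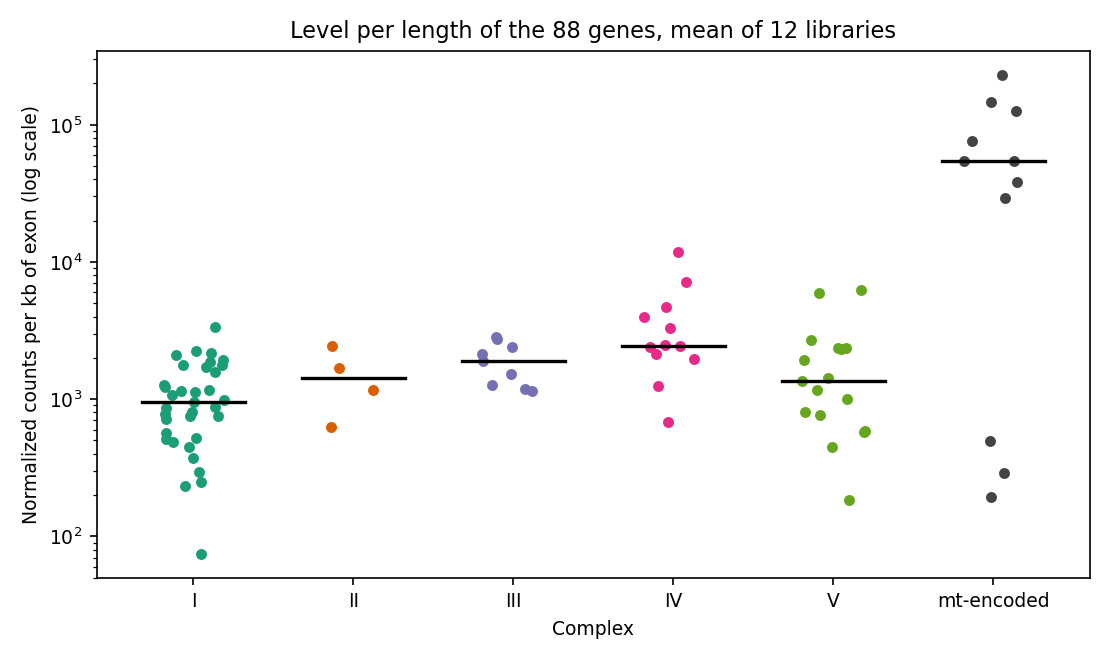
Normalised counts per kb of summed exon length (log scale) of each of the 88 genes, as means over 12 libraries. Points are genes, grouped by nuclear complex or mitochondrial encoding, and bars are medians: 8 of the 11 mitochondrially encoded genes lie above every nuclear gene, and 3 lie far below them.

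The mitochondrially encoded genes with near-complete annotated nuclear copies had far lower levels than the others. Of the 13 protein genes of mitochondrial DNA, 8 had 29500 to 231737 normalised counts per kb. The other 5 had 10.4 to 492 per kb: mt-Nd3 (complex I) 492, mt-Atp6 (complex V) 288, mt-Co2 (complex IV) 193, mt-Co3 (complex IV) 40.5 and mt-Nd4l (complex I) 10.4. All of these are transcribed from the same strand as mt-Co1, and mt-Atp6 shares a messenger with the neighbouring and overlapping mt-Atp8, which had 29500.4 per kb. Each of these 5 genes lay at least 98.99% inside annotated pseudogenes of GENCODE M21 with at least 98% identity over at least 75 bases, all on chromosome 1 between 24612407 and 24615565 (GRCm38). Of the other 8 genes, mt-Nd4 lay 63.6% and mt-Co1 31.3% inside such a copy, and the remaining 6 had none by these criteria. Only annotated transcripts were searched, so unannotated copies would be missed. mt-Atp8, counted among the 6, lies between mt-Co2 and mt-Atp6 on mitochondrial DNA and overlaps mt-Atp6 by 43 bases, under the minimum of 75. Copies of these neighbours lie at chr1:24614885-24615565 and chr1:24613974-24614651. Whether a copy of mt-Atp8 lies between them was not tested. Over the aligned bases, mt-Co2 matched Gm28661 in 681 of 681 bases, mt-Atp6 matched Gm10925 in 678 of 678, and mt-Nd3 differed from Gm28438 in 1 of 345 (T3C, the mitochondrial base first, counted from the first base of mt-Nd3). The stretches below show how little separates gene and copy. They are given 5′ to 3′ in the direction of transcription of the mitochondrial gene (GRCm38, transcripts of GENCODE M21). Capitals mark the base that differs. The mt-Co2 bases are 311 to 370 of the gene (chrM:7323-7382, plus strand) with the copy at chr1:24615196-24615255 (minus strand), and the mt-Nd3 bases are 1 to 60 (chrM:9459-9518, plus strand) with the copy at chr1:24613060-24613119 (minus strand).
mt-Co2: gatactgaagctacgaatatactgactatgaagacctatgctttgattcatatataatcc
Gm28661: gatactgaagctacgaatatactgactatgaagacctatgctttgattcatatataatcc
mt-Nd3: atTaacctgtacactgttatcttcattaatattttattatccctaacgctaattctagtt
Gm28438: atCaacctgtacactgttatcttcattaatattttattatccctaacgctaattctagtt
The annotated copies of these 5 genes averaged 9.70 to 68.1 normalised counts. The labels do not state how reads with several alignments were counted, and the part of that step in these levels was not tested. Reads of mt-Co2, mt-Atp6 and mt-Nd3 cannot be told apart from reads of these copies over nearly all of their length.

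**Figure D2:**
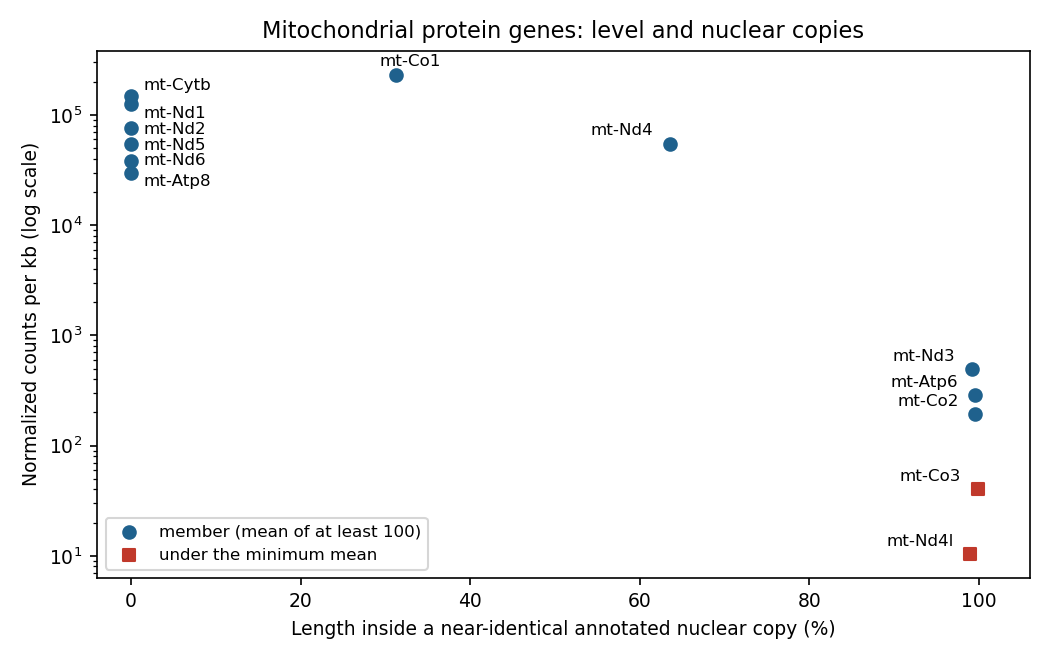
Normalised counts per kb (log scale, mean of 12 libraries) of the 13 mitochondrial protein genes against the percentage of their length inside near-identical annotated nuclear copies. Circles are genes with a mean of at least 100 and squares are those under it: the 5 genes at about 99% or more have 10.4 to 492 per kb, and the 8 others 29500 to 231737.

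The minimum of 100 therefore cut through this set. The lowest genes inside it were mt-Co2 with a mean of 132, mt-Nd3 with 171 and mt-Atp6 with 196, followed by Atp5s, a coupling factor of the ATP synthase, with 377. The highest outside it were Cox6b2 with 78.9, Ndufa4l2 with 65.5, Ndufb4c with 59.4 and Cox6a2 with 57.3, and mt-Co3 lay outside with 31.7 and mt-Nd4l with 3.09. Ndufb4c is annotated as a processed pseudogene, but its symbol lacks the mark -ps. Among the 77 nuclear genes, 15 had any copy by the same criteria and 6 had one over at least 50% of the principal transcript: Ndufs3, Cox7c, Uqcrb, Atp5h, Atp5l and Atp5g2. Their values are uncertain to the extent that reads were shared. The library kit does not keep the strand, and 30 of the 88 genes overlapped an annotated gene on the opposite strand, among them Atp5d (with Cbarp, over 2204 bases) and Cox4i1 (with Emc8, over 352 bases).

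Some start-site regions of the nuclear genes carried motifs of factors known to regulate respiratory genes. RefSeq promoters (GRCm38.p6, 250 bases before to 50 after the start) were found for 64 of the 77. The NRF1 motif, the letters GCGCA and GCGC separated by 1 base of any kind and searched on both strands like the others, was in 17 of 64 (26.6%), against 5.19% of all 27025 genes with a promoter. For the YY1 motif AAGATGGC the count was 10 of 64 (15.6%), against 3.19%, and for the GABPA motif CCGGAAGT it was 5 of 64 (7.81%), against 4.31%. Any of these motifs was in 30 of 64 (46.9%), against 11.7% of all genes with a promoter, a background not limited to tested genes. No matches of different motifs overlapped each other (0). By complex, the NRF1 motif was in 7 of 31 genes of complex I, 2 of 3 of complex II, 1 of 5 of complex III, 1 of 10 of complex IV and 6 of 15 of complex V. A pair is shown because the genes recur below: Sdha, the flavoprotein of complex II, with 3 NRF1 matches (chr13:74350191-74350490, minus strand), and Cox8a, the nuclear gene with the highest level, with 2 GABPA matches (chr19:7217567-7217866, minus strand). Both had several matches and are not typical, since any motif was in 30 of 64 genes. Atp5b, which also recurs below, had 0 matches of these motifs. Capitals mark the matches, which are descriptions of the letters and not evidence of binding.
Sdha: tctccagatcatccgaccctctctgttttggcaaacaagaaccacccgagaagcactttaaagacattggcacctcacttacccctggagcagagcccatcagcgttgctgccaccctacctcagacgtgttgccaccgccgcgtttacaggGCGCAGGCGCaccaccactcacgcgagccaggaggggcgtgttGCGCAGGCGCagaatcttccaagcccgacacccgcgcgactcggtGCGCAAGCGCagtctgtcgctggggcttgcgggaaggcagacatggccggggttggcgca
Cox8a: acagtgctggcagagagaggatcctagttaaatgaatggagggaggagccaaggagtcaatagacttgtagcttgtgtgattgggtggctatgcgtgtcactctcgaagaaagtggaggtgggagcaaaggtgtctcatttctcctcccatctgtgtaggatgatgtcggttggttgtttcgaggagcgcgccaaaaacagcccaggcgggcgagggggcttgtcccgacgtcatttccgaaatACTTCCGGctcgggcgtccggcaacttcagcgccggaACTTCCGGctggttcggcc

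The mitochondrially encoded genes supplied about 4 reads for each read of the nuclear ones, and this proportion was alike in the groups. They held 3.47 ± 0.13% of recovered reads in mutant males, against 3.42 ± 0.12% in wild-type males, and 3.43 ± 0.12% in mutant females, against 3.49 ± 0.13% in wild-type females (SD, n = 3 each). The 77 nuclear genes held 0.863 ± 0.039% in mutant males, against 0.865 ± 0.025% in wild-type males, and 0.879 ± 0.023% in mutant females, against 0.861 ± 0.016% in wild-type females. Complex V took the largest part of the nuclear share, 0.320 ± 0.016% in mutant males, against 0.327 ± 0.009% in wild-type males. Reads of mitochondrial genes per read of nuclear genes were 4.03 ± 0.13 in mutant males, against 3.96 ± 0.045 in wild-type males, and 3.90 ± 0.11 in mutant females, against 4.05 ± 0.14 in wild-type females. The ranges over libraries overlapped between genotypes in each of these comparisons, and no test was made on the shares.

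No respiratory chain gene differed between Chd8 mutants and wild type past the threshold of adjusted p 0.05 in limma, in males, in females or averaged over both sexes. Called genes numbered 0 of 88 in males (background over all 17496 genes 0.0%), 0 of 88 in females (background 0.0%) and 0 of 88 averaged (background 0.00572%, which is 1 gene, Chd8). At an unadjusted p under 0.05 there were 4 of 88 genes in males (background 10.3%), 2 in females (background 6.9%) and 3 averaged (background 8.87%). edgeR and limma-voom also called 0 in these comparisons. DESeq2 called 0 in males (background 0.143%), 0 in females (background 0.0514%) and 1 averaged, Cox5a (adjusted p = 0.0378, background 0.429%).

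The differences were small, and the intervals show how small. Averaged over both sexes, 85 of 88 genes (96.6%) had a fitted log2 difference within 0.1 of 0, against 70.2% of all tested genes and 82.6% of tested genes with a mean of at least 100. The 95% confidence interval lay within 0.2 of 0 on the log2 scale, a change of 14.9% upwards, for 83 of 88 genes. Of all tested genes it was 49.6%, but these include genes with means under 100, which the minimum left out of the 88. The exceptions among the 88 were Cox5a, Ndufc2, mt-Co2, mt-Atp8 and mt-Atp6. In males alone the interval lay within 0.3 (23.1% upwards) for 82 of 88 genes, against 51.8% of all tested genes. In females it did so for 85 of 88, against 53.1%.

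The complexes had no common direction in males, whereas in females the medians of nuclear complexes I to V were all slightly positive. In males the median log2 difference was 0.031 in complex I, -0.055 in complex II, 0.021 in complex III, 0.036 in complex IV, -0.037 in complex V and 0.025 in the mitochondrially encoded genes, against 0.0017 over all tested genes. In females it was 0.016, 0.022, 0.019, 0.012, 0.021 and -0.0071 in the same order, against 0.0011 over all tested genes. Complex V had positive differences for 5 of 17 genes in males and for 12 of 17 in females. Of the 77 nuclear genes, 43 were positive in males (55.8%, against 50.6% of all tested genes). In females 58 were positive (75.3%, against 50.5%). Over the 77 nuclear genes the median was 0.0085 in males, where it was -0.027 without mutant male 1, and 0.019 in females, where it was -0.00383 with upper-quartile factors and -0.0095 with the choroid plexus score as covariate. Leaving out the 3 libraries low in choroid plexus markers, the male median was 0.063. Over the 11 mitochondrially encoded genes the median was 0.025 in males and -0.0071 in females, and with scaling to total reads the female value was 0.0037. The sign of the male nuclear median thus changed with 1 library, and the signs of both female medians changed with the setting. The male mitochondrial median was positive in every setting tried.

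**Figure D3:**
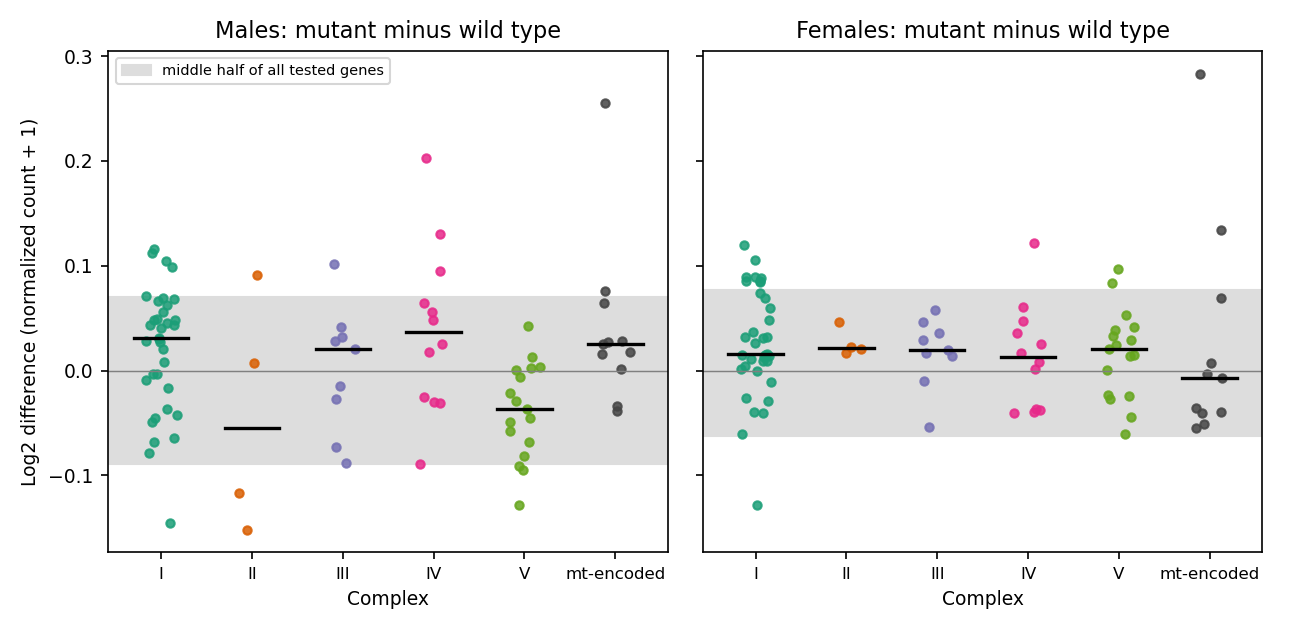
Fitted log2 differences, mutant minus wild type, of the 88 genes in males (left) and females (right), by nuclear complex and for the mitochondrially encoded genes. Points are genes, black bars are medians and the grey band is the middle 50% of all 17496 tested genes: most points lie inside the band, with Cox5a highest among nuclear genes in both sexes.

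Complex I, the NADH dehydrogenase, showed 0 called genes among 35, and the core subunits named here had averaged differences close to 0. Ndufv1, which binds NADH and flavin, averaged 2878 ± 72.4 in mutant males, against 2962 ± 46.4 in wild-type males, and 3004 ± 76.4 in mutant females, against 2930.3 ± 130.2 in wild-type females (normalised counts, SD, n = 3 each). Averaged log2 differences were -0.0027 ± 0.03 for Ndufv1 and 0.01 ± 0.02 for the iron-sulfur subunit Ndufs1. Ndufb3, an accessory subunit of the membrane arm (ENSMUSG00000026032, chr1:58586384-58595964, plus strand, GRCm38), had the highest averaged difference of the complex. It had 984, 964 and 1007 normalised counts in mutant males, against 952, 920.1 and 949.8 in wild-type males. In mutant females it had 1034, 1028 and 1007, against 934, 958 and 961 in wild-type females. Every mutant library lay above every wild-type library of its sex, and the averaged difference was 0.09 ± 0.03 (95% interval 0.03 to 0.14, limma adjusted p = 0.385).

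At the other end of complex I stood Ndufb11, an X-linked accessory subunit, with 2108, 1746 and 1862 normalised counts in mutant males, against 2192, 1986 and 2131 in wild-type males. In mutant females it had 2057, 2067 and 2153, against 1916, 2109 and 2245 in wild-type females, and the groups overlapped in both sexes. Its difference was -0.15 ± 0.07 in males (adjusted p = 0.509) and 0.0044 ± 0.07 in females (adjusted p = 0.997). Ndufs4, an accessory subunit that is mutated in inherited complex I deficiency, had 1343, 1376 and 1325 normalised counts in mutant females, all below the 1409.9, 1557 and 1456 of wild-type females, with a difference of -0.13 ± 0.07 (limma adjusted p = 0.768). In males Ndufs4 overlapped between genotypes, at 1462, 1271 and 1453 in mutants and 1490.0, 1286 and 1434 in wild type.

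Complex II, the succinate dehydrogenase that also serves the citric acid cycle, had 4 genes with unlike values. Sdha, the flavin-carrying subunit, was among the steadiest of all 88 genes, with 10131 ± 135 normalised counts in mutant males, against 10080.1 ± 114 in wild-type males, and 10126 ± 144 in mutant females, against 9967 ± 189.9 in wild-type females (SD, n = 3 each). Sdhb, the iron-sulfur subunit, had a difference of 0.09 ± 0.05 in males and 0.05 ± 0.05 in females. The membrane anchors Sdhc and Sdhd were lower in mutant males in their means. Sdhc had 2101, 1799 and 1896 in mutant males, against 2178, 2080.2 and 2169 in wild-type males, with 1 mutant library inside the wild-type range. Sdhd had 2124, 1931 and 1915 in mutant males, against 2154, 2145 and 2169 in wild-type males, without overlap. The differences were -0.15 ± 0.07 for Sdhc (95% interval -0.29 to -0.01) and -0.12 ± 0.04 for Sdhd (95% interval -0.21 to -0.02), and neither passed after adjustment (limma adjusted p = 0.467 and 0.44). In females they were 0.02 ± 0.07 and 0.02 ± 0.04. In both anchors the 2 lower mutant male libraries were those low in choroid plexus markers. Wild-type female 1, the other library low in those markers, was also the lowest of its group for both anchors. The part of that difference in these values was not tested.

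**Figure D4:**
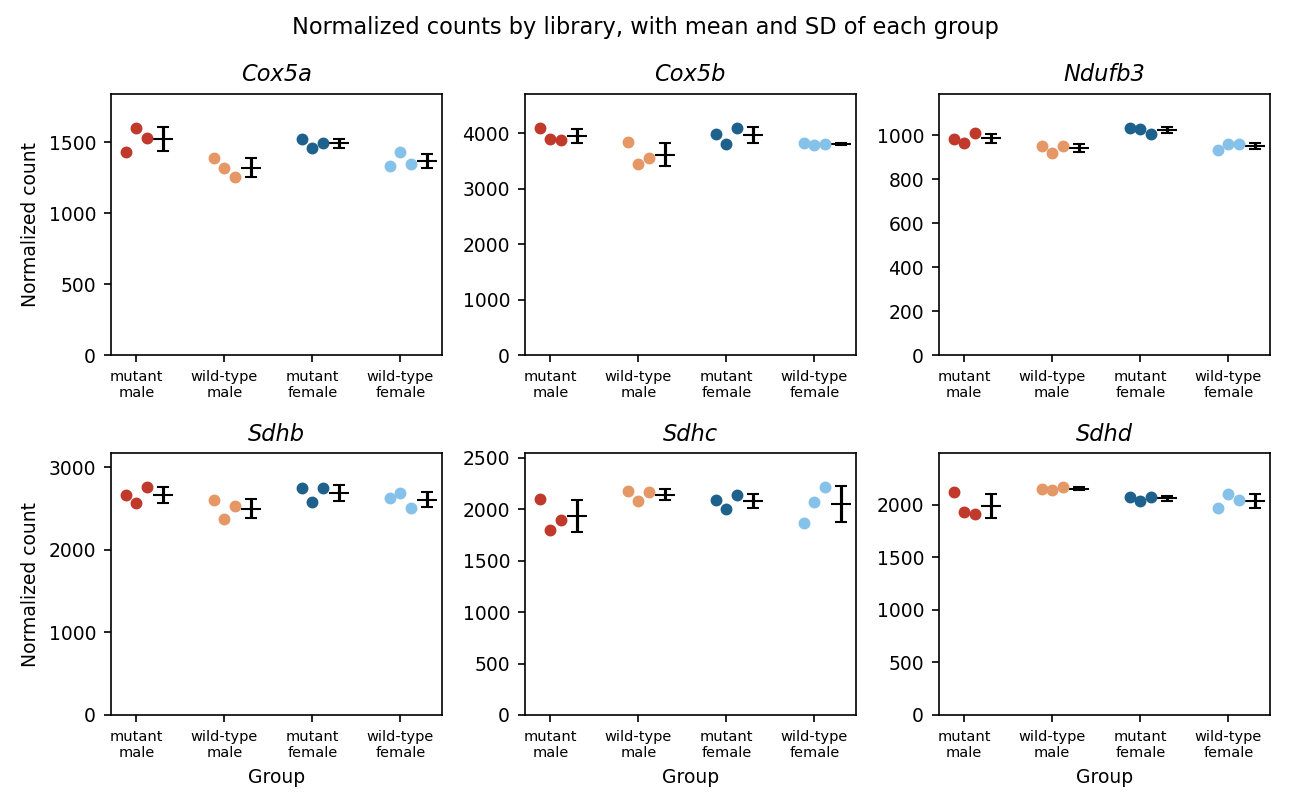
Normalised counts of Cox5a, Cox5b, Ndufb3, Sdhb, Sdhc and Sdhd in each library, by group, on axes that start at 0. Coloured points are libraries, and the black mark and bar beside them are the mean and SD of 3 libraries: Cox5a and Ndufb3 lie higher in every mutant library of each sex, and Sdhd lies lower in every mutant male library.

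Complex III, the cytochrome bc1 complex, had 0 called genes among 9, all within 0.1 of 0 averaged. Cyc1, which carries the heme of cytochrome c1, had a difference of 0.03 ± 0.06 in males and 0.03 ± 0.06 in females. The Rieske iron-sulfur protein Uqcrfs1 averaged 2599 ± 77.5 normalised counts in mutant males, against 2524 ± 13.5 in wild-type males, and 2632 ± 50.2 in mutant females, against 2567 ± 37.4 in wild-type females (SD, n = 3 each), with an averaged difference of 0.04 ± 0.02 (limma adjusted p = 0.656). The core protein Uqcrc1 was at 0.01 ± 0.03 averaged. The small subunits Uqcr11 and the hinge protein Uqcrh marked the ends of the complex at 0.08 ± 0.05 and -0.06 ± 0.04, with overlapping groups in both sexes.

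Complex IV, the cytochrome c oxidase, held Cox5a, whose averaged difference of 0.16 was matched among the 88 genes by that of mt-Atp6 (0.16 ± 0.10, limma adjusted p = 0.665). Cox5a, a nuclear subunit on the matrix side (ENSMUSG00000000088, chr9:57521274-57532426, plus strand, GRCm38), had 1430.3, 1601 and 1528 normalised counts in mutant males, against 1388, 1316 and 1257 in wild-type males. In mutant females it had 1519, 1454 and 1496, against 1335, 1426 and 1347 in wild-type females. Every mutant library lay above every wild-type library of its sex. The difference was 0.20 ± 0.05 in males (limma adjusted p = 0.407), 0.12 ± 0.05 in females (adjusted p = 0.663) and 0.16 ± 0.04 averaged (95% interval 0.08 to 0.24, adjusted p = 0.285). In DESeq2 the averaged adjusted p was 0.0378 and in edgeR 0.27. Over 21 other settings of limma it ranged from 0.195 to 0.626, and the difference from 0.11, leaving out the 3 libraries low in choroid plexus markers, to 0.18. A lncRNA gene on the opposite strand, Gm26631, overlapped Cox5a by 1140 bases and averaged 21.5 normalised counts.

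Cox5b, the zinc-binding matrix-side subunit that sits beside Cox5a, had 4101, 3893 and 3874 normalised counts in mutant males, against 3848, 3447 and 3552 in wild-type males, without overlap. In mutant females it had 3984, 3818 and 4104, against 3824, 3789 and 3802 in wild-type females, and 1 mutant library lay inside the wild-type range. The averaged difference was 0.10 ± 0.03 (95% interval 0.03 to 0.16, limma adjusted p = 0.406). The other nuclear subunits had averaged differences closer to 0. Cox4i1, a regulatory subunit, had 0.05 ± 0.05 in males and -0.04 ± 0.05 in females, Cox8a had -0.03 ± 0.04 and -0.04 ± 0.04, and the X-linked Cox7b, the lowest of the complex, had -0.09 ± 0.08 and 0.02 ± 0.08. Ndufa4 was at -0.03 ± 0.06 averaged, with one of the widest spreads of the complex (coefficient of variation 7.27% over 12 libraries).

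Complex V, the ATP synthase, took the largest share of nuclear respiratory reads and had averaged differences between -0.06 and 0.03. Atp5b had 25976, 23497 and 24967 normalised counts in mutant males, against 25381, 24102 and 24717 in wild-type males, a difference of 0.0038 ± 0.04. In females Atp5b differed by 0.04 ± 0.04, and Atp5a1 by -0.03 ± 0.04 in males and 0.04 ± 0.04 in females. Averaged, 7 genes were positive and 10 negative, with Atp5g2 highest at 0.03 ± 0.04 and Atp5mpl, a small proteolipid, lowest at -0.06 ± 0.05. The 3 genes Atp5g1, Atp5g2 and Atp5g3 encode the same mature c subunit of the proton-driven ring. Atp5g1 had 2801 ± 331 normalised counts in mutant males, against 3049.7 ± 137 in wild-type males (SD, n = 3 each), with a difference of -0.13 ± 0.08, and Atp5g3 had one of -0.09 ± 0.05. In females the 3 genes had 0.03 ± 0.08, 0.08 ± 0.05 and 0.03 ± 0.05 in the order of their numbers. None passed after adjustment (lowest limma adjusted p in males 0.582).

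The mitochondrially encoded genes had no called member in either sex, and most differences lay close to 0. mt-Cytb averaged 170245 ± 3492 normalised counts in mutant males, against 167052 ± 4856 in wild-type males, and 166949 ± 1584 in mutant females, against 171192 ± 5406 in wild-type females (SD, n = 3 each). mt-Co1 had a difference of 0.02 ± 0.06 in males and -0.05 ± 0.06 in females, the lowest of the set averaged (-0.02). The complex I genes mt-Nd1, mt-Nd2, mt-Nd4, mt-Nd5 and mt-Nd6 had averaged differences of 0.02, 0.03, -0.02, -0.02 and 0.02. The widest differences of the set belonged to genes of low count or short length. mt-Co2 had 169, 127 and 144 normalised counts in mutant females, against 127, 138 and 97.1 in wild-type females, overlapping, with a difference of 0.28 ± 0.17 (95% interval -0.09 to 0.65, limma adjusted p = 0.81). mt-Atp6, a proton channel subunit of complex V, had 245, 206 and 196 in mutant males, against 202, 147 and 196 in wild-type males, with a difference of 0.26 ± 0.14 (95% interval -0.05 to 0.56, adjusted p = 0.555). mt-Atp8 had 4411, 6727 and 6168 in mutant males, where 1 library was far lower than the others, against 6589, 5341 and 5629.6 in wild-type males. In mutant females mt-Atp8 had 6173, 6713 and 6656, against 5933, 5692 and 6185 in wild-type females, overlapping, with a difference of 0.13 ± 0.12 (95% interval -0.14 to 0.41, limma adjusted p = 0.894).

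Few genes had groups that did not overlap, and the counts stood near or below the background shares. In males 5 of 88 genes were higher in every mutant library (Cox5a, Cox5b, Ndufb3, Ndufa12 and Ndufs8; background 8.37%) and 2 lower (Sdhd and Atp5h; background 7.68%). In females 5 of 88 were higher (Cox5a, Ndufb3, Ndufc1, Ndufa7 and Atp5c1; background 5.14%) and 1 lower (Ndufs4; background 5.66%). Ndufs8, an iron-sulfur subunit of the complex I core, had a male difference of 0.10 ± 0.05, and Atp5h, a stalk subunit of complex V, had -0.07 ± 0.04. Atp5c1, the rotating gamma subunit, had a female difference of 0.02 ± 0.03.

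The genotype effects of males and females were not shown to differ. For the difference of the effects limma called 0 of 88 genes (background 0.0%), as did edgeR, limma-voom and DESeq2 (DESeq2 background 0.0171%), and 1 of 88 had an unadjusted p under 0.05 (background 7.85%). That gene was Sdhd, with a male minus female effect of -0.13 ± 0.06 (limma adjusted p = 0.635), and Sdhc had -0.17 ± 0.09 (adjusted p = 0.69). In complex V the difference of effects was negative for 15 of 17 genes, with a median of -0.06, against 0.0051 over all tested genes, and none was called. Male and female mutants were also compared directly. limma called 0 of 88 genes between mutant males and mutant females (background 0.0629%) and 0 of 88 between wild-type males and wild-type females (background 0.0457%). At an unadjusted p under 0.05 there were 0 between the mutants (background 7.14%) and 3 between the wild types (background 6.43%), and the other tools called 0 in each: edgeR and limma-voom with backgrounds of 0.0629% in mutants and 0.0572% in wild type, and DESeq2 with 0.126% and 0.131%. Groups that did not overlap numbered 0 higher (background 6.86%) and 0 lower (background 5.85%) in mutant males, against mutant females. In wild-type males, against wild-type females, 2 were higher (Sdhd and Atp5s, background 5.83%) and 8 lower (background 6.45%). The 3 with a low p were Cox6a1, Cox4i1 and Uqcrc1. Cox4i1 had 6135, 5794 and 5814 normalised counts in wild-type males, all below the 6560.2, 6281 and 6288 of wild-type females, with a male minus female difference of -0.11 ± 0.05 (limma adjusted p = 0.774). In mutants this difference was -0.02 ± 0.05.

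The nuclear genes shifted together from library to library. The SD of their library median was 0.046 over the 12 libraries, above their median genotype differences of 0.0085 in males and 0.019 in females. Within mutant males, 56 of 77 were highest in library 1 and 57 of 77 lowest in library 2. Within wild-type males, 54 of 77 were highest in library 1 and 59 lowest in library 2. Within mutant females, 66 of 77 were lowest in library 2, and within wild-type females no library was lowest for more than 39. Expressed as the median deviation of the 77 genes from their own means (log2), the 3 mutant male libraries stood at 0.052, -0.074 and -0.00017, against 0.032, -0.049 and -0.015 in wild-type males. Mutant females stood at 0.055, -0.035 and 0.050, against -0.025, 0.016 and 0.016 in wild-type females. Over all tested genes these medians were 0.0014 to 0.0033 in every library. The scaling by median ratios largely fixes these values in advance, so they are no measure of how particular the shift is to the nuclear genes.

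The mitochondrially encoded genes followed this order only in part. Their medians were 0.073, 0.0039 and -0.029 in mutant males, against 0.032, -0.047 and -0.032 in wild-type males. In mutant females they were 0.055, -0.041 and -0.024, against 0.049, -0.061 and 0.054 in wild-type females. Mutant female 3 was high in the nuclear and low in the mitochondrial set, and wild-type female 1 was the reverse. The SD of the library median was 0.046 for the nuclear and 0.056 for the mitochondrial set. The low library of mutant males, library 2, was among those low in choroid plexus markers, as was wild-type female 1, which had the lowest nuclear median of its group. The low libraries of wild-type males and mutant females were not. Single genes varied little: the median coefficient of variation over the 12 libraries was 4.73% for the 77 nuclear genes, against 8.17% over all tested genes, and for nuclear genes with a mean of at least 1000 it was 4.64%, against 4.35% over all tested genes of that level.

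**Figure D5:**
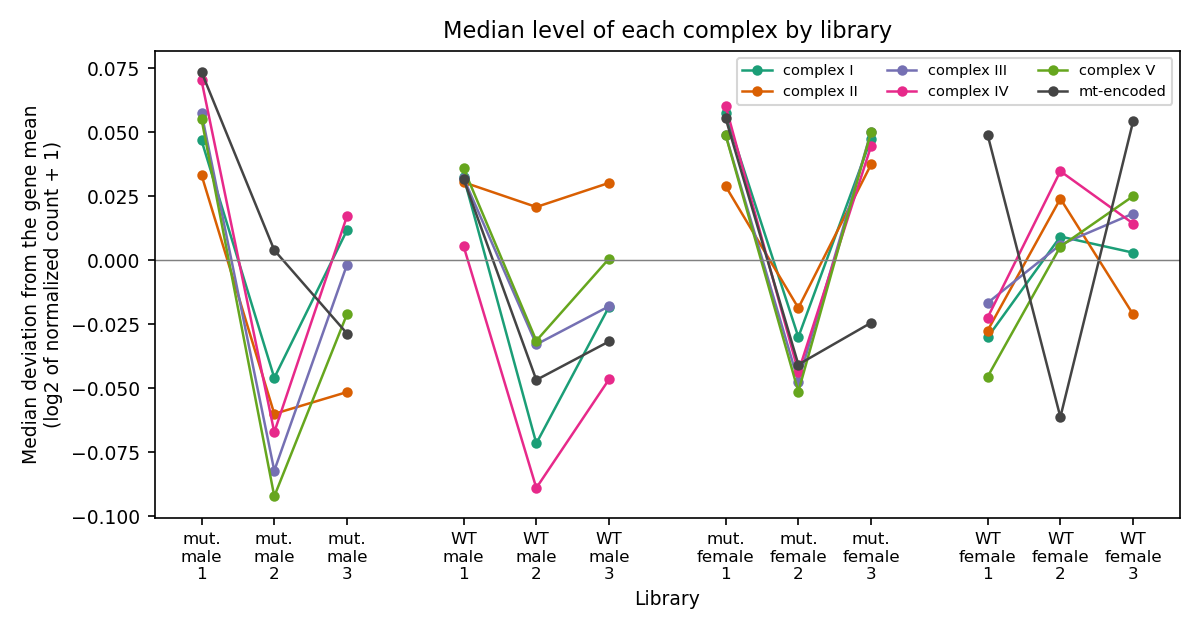
Median deviation from the gene mean, on log2(normalised count + 1), of the genes of each nuclear complex and of the mitochondrially encoded genes in each library. Lines join the libraries of a group for each set and carry no order in time: complexes I, III, IV and V share the low points at mutant male 2, wild-type male 2 and mutant female 2, and the mitochondrially encoded set departs from them at mutant male 2, mutant female 3 and in wild-type females.

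Tissue-restricted paralogues were low next to the forms found in most tissues, and the minimum left most of them out. Cox8b, the heart and muscle form beside Cox8a, ranged from 0.908 in wild-type female 1 to 43.5 in wild-type male 1, and had 38.7, 5.67 and 2.17 normalised counts in mutant males, against 43.5, 32.3 and 32.3 in wild-type males. Cox7a1, the heart and muscle form beside Cox7a2, had 39.8, 20.4 and 17.4 in mutant males, against 50.4, 37 and 46.8 in wild-type males, and Cox6b2, known from testis, had 107, 45.4 and 51.1, against 133, 93.9 and 80.7. In all 3 genes the lowest mutant male libraries were 2 and 3, both low in choroid plexus markers. Wild-type female 1, the other library low in those markers, was the lowest of its group for Cox8b and Cox6b2 but not for Cox7a1. The part of that tissue was not tested, and none of the 3 was called (lowest limma adjusted p in males 0.487). Cox6a2, a muscle form, Cox4i2, known from lung, and the hypoxia-induced Ndufa4l2 averaged 57.3, 22.5 and 65.5 normalised counts over the 12 libraries. Cox8c was at 0 in every library. Of the ubiquitous forms, Cox6a1 had an averaged difference of 0.05 ± 0.04, Cox6b1 of 0.02 ± 0.03, Cox7a2 of 0.03 ± 0.04 and Cox7a2l, which takes part in joining complexes into supercomplexes, of -0.03 ± 0.03.

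Genes that build, regulate or feed the chain were likewise without a called member in the genotype comparisons. limma called 0 of 44 tested assembly factors, 0 of 21 regulators and mitochondrial DNA expression genes, 0 of 13 citric acid cycle genes, 0 of 10 carriers and outer membrane genes, 0 of 2 mitochondrial ribosomal RNAs and 0 of 78 mitochondrial ribosomal proteins, in males, in females and averaged. The backgrounds of these counts were 0.0% in males, 0.0% in females and 0.00572% averaged. At an unadjusted p under 0.05 in the averaged comparison there were 6 of 44 assembly factors (3 higher and 3 lower) and 1 higher of 21 regulators. There was also 1 higher of 13 citric acid cycle genes and 1 higher of 10 carriers. Ribosomal RNAs had 0 of 2, and ribosomal proteins 5 of 78 (4 higher and 1 lower). The background was 8.87% (770 higher and 782 lower of 17496 genes). Median averaged differences were 0.012, -0.01, 0.023, 0.019, -0.053 and 0.014 in the order of the lists.

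Single genes of these lists, chosen after their values were seen, had the following values. Uqcc1, an assembly factor of complex III, had 1287, 1343 and 1224 normalised counts in mutant males, against 1389, 1387 and 1407 in wild-type males, and 1269.5, 1279 and 1282 in mutant females, against 1308, 1434 and 1365 in wild-type females. All mutant libraries lay below the wild-type libraries of their sex (background 7.68% in males and 5.66% in females). The averaged difference of Uqcc1 was -0.11 ± 0.03 (limma adjusted p = 0.359). Slc25a4, the ADP/ATP carrier of excitable tissues, lay higher in every mutant library (background 8.37% in males and 5.14% in females). Its averaged difference was 0.07 ± 0.02 (limma adjusted p = 0.427). Cox18, which inserts the mitochondrially encoded Cox2 protein into the membrane, had 0.20 ± 0.08 in males and 0.05 ± 0.08 in females. Among regulators, Nrf1 had 0.13 ± 0.06 in males and 0.04 ± 0.06 in females, Yy1 had 0.10 ± 0.04 averaged (adjusted p = 0.44), and the coactivator Ppargc1a had -0.03 ± 0.04. Tfam, which packages and transcribes mitochondrial DNA, had -0.04 ± 0.04 averaged. The mitochondrial ribosomal RNAs mt-Rnr1 and mt-Rnr2 had -0.14 ± 0.06 and -0.12 ± 0.06 in females and 0.01 ± 0.06 and 0.03 ± 0.06 in males (lowest limma adjusted p in females 0.726). Cycs, the electron carrier cytochrome c, was at -0.0028 ± 0.04 averaged.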

How the data were processed

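Hippocampal RNA of 12 libraries, 3 in each of 4 groups taken from the sample titles, was sequenced with a kit that discards strand, per the labels' protocols. DESeq2, HTSeq, TopHat2 2.1.0, Trimmomatic 0.35 and the build GRCm38 stand in the submitters' processing notes, without roles. The authors deposited a normalised signal for each Ensembl gene, the read count over a size factor. The values show this: every value was a whole multiple of 1 step per library (100% within a tolerance of 0.01 reads). The inverse of each step equalled the size factor that median ratios of the reads gave. The test planned for values already scaled, limma, was therefore used. Symbols and positions come from GENCODE M21.

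limma 3.58.1 (R 4.3.3, trend option) was fitted to log2(value + 1) of the 17496 genes with a mean of at least 10, with 1 mean per group over all 12 libraries. P-values were adjusted over all tested genes, and the threshold was 0.05. This scale understates changes of low genes. Intervals are limma's 95% intervals without adjustment. The fit was tested on simulated data. Alternatives were edgeR 4.0.16 and DESeq2 1.42.0 on recovered reads, limma-voom, other scalings, filters and pseudocounts, a replicate block and leaving out each library. Fits leaving out the 3 libraries low in choroid plexus markers, with the choroid plexus score as covariate and with principal transcript length were added after seeing the data. Copies were sought among annotated transcripts only, with blastn 2.17.0. Chi-square statistics per degree of freedom within groups were 3.42 to 30.6, so no libraries were duplicates.

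Genes were named for having the highest or lowest averaged difference of their complex or the largest in a sex, for their role, or as paralogues. One gene that this rule names is not reported here. Ndufs4, Cox5b, the genes listed for groups without overlap, and the named genes of the regulatory lists were chosen after their values were seen. The members and lists were chosen with earlier results of these data known.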

Additional observations from a re-analysis of the deposited data

How the results depend on the processing

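Counts of called genes were 0 in each of the 6 comparisons under every setting tried, except that DESeq2 called 1 in the averaged comparison (Cox5a). Leaving out 1 library at a time gave a lowest and highest count of 0 in each, and 0 in every regulatory list. Over those fits the median of the nuclear genes ranged from -0.027 to 0.042 in males, 0.00465 to 0.044 in females and 0.00214 to 0.030 averaged. That of the mitochondrially encoded genes ranged from 0.0072 to 0.050, from -0.050 to 0.017 and from -0.00679 to 0.040 in the same order. Leaving out the 3 libraries low in choroid plexus markers, which leaves 1 mutant male assumed to vary like the other groups, the male medians were 0.063 (nuclear) and 0.083 (mitochondrial), and with the choroid plexus score as covariate they were 0.061 (nuclear) and 0.028 (mitochondrial). The cause was not tested. Reads of the mitochondrially encoded genes were also set against the reads of other tested genes, without mitochondrial genes and choroid plexus markers. This is a ratio to a smaller denominator that does not contain them. It was 3.64% in mutant males, against 3.60% in wild-type males, and 3.59% in mutant females, against 3.66% in wild-type females. Leaving out 1 library, the shares of all reads ranged from 3.40 to 3.52%, against 3.35 to 3.46%, in males and from 3.36 to 3.46%, against 3.43 to 3.56%, in females. With principal transcript length, 9 of the 10 highest genes per kb remained among the 10 highest.

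Same-numbered libraries of the genotypes correlated in their deviations with r of 0.0097 to 0.11, against -0.13 to 0.082 for other pairs. Of the 12 libraries, 8 correlated best with their own number. The labels state no pairing, and the main fit did not pair the numbers. Whether same-numbered libraries share a factor was not tested. With a replicate block 0 genes were called in every comparison, and the median of the nuclear genes in males stayed at 0.0085. Group size of 3 and the confounding of depth with genotype limit these results. At under 200 normalised counts, mt-Co2, mt-Nd3 and mt-Atp6 rest on few reads.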
